A study of Danio rerio with 6 samples.

Results

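Single insertions near the Cas9 cut site of the H2A-GFP transgene were examined in 6 adult zebrafish, of which R1, R2 and R3 had received Cas9 RNA and P1, P2 and P3 Cas9 protein, so that each form had 3 fish. All fish were about 1 year old, carried 8 copies of the transgene and received, at the one-cell stage, a guide RNA against GFP. No fish without Cas9 was analysed here. Each fish was dissected into small parts of many organs, and GFP was amplified from their genomic DNA with a barcode for each library. The body structure behind a barcode was not used here, technical replicas of a structure may be among the libraries of a fish, and each fish is 1 replicate of its injection. A scar is a deposited combination of insertion and deletion lengths along a GFP reference of 720 bp, with a count of reads in each barcode. The scars described here were chosen by their shape and by their reads. They hold exactly 1 insertion and no deletion, start at positions 520 to 570 counted from 1 at the start of the reference, and reach at least 10 reads in at least 1 library with 1000 or more reads. Of 214 such insertions with any read in these libraries, 136 reached 10 reads and 78 did not. The 136 insertions were 3.18% of the 4273 scars that reach 10 reads in the 6 fish.

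Cas9 cuts both strands of DNA at the site that the guide matches, and a cut rejoined by end joining can gain or lose a few bases. In yeast and human cells, an insertion of 1 bp at a Cas9 cut is often a copy of the base next to it, whereas longer insertions have more varied sources. A cut that is rejoined without change can be cut again, and an insertion that alters the target is passed on to all daughters of the cell. Injected Cas9 protein is present at once, whereas injected RNA must first be translated, and the study used RNA to scar into gastrulation and protein to scar earlier only. A change that is not a multiple of 3 bp shifts the reading frame of GFP downstream of it.

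A scar is written as its run of matched bases, the inserted length and the remaining matched bases. The 1 bp insertion before position 533, for example, stands as 532M1I188M, and the 1 bp insertion before position 546 as 545M1I175M. The inserted bases themselves are not part of this notation, so different inserted sequences of the same length at the same position count as 1 scar. No inserted sequence is therefore printed, and each insertion is named by the position of the base that follows it and by its length. An insertion within a repeat can be placed at either end of it by an aligner. The position of the cut itself is not given in the sources used here.

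There were 58 libraries from the fish with Cas9 RNA, and those with Cas9 protein gave 72, with between 2802 and 3198706 reads each and between 1842 and 2187091 scarred reads. Barcode numbers came from 1 common set, and 26 of them were used in at least 2 fish. The smallest share of scarred reads that 3 reads can show lay between 0.000137% and 0.163%, both in libraries of fish P1. Confidence intervals and such limits cover counting error only, since PCR reads without molecular identifiers are not independent molecules. With 3 fish against 3, an exact permutation test cannot give a two-sided p under 0.10, so no comparison between injections can pass 0.05.

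The scars of 1 library overlapped more with another fish than with its own. The overlap of scarred reads, the sum over all scars of the smaller of both shares, was computed between each library and the mean of the other libraries of each fish. In 129 of the 130 libraries it was highest with the fish of the label. Among these it was as low as 19.3% in barcode 24 of fish P2 and 23.4% in barcode 9 of fish P3. In barcode 24 of fish P1 it was 58.1% with fish P2 and 24.5% with the other libraries of fish P1, which themselves reached 42.5% to 82.4% with their own fish and 18.7% to 40.4% with fish P2. Without the single insertions the order was the same, with 43.1% for fish P2 and 32.2% for fish P1. This library held 2839277 reads, the most of fish P1, and 65.9% of its 2187091 scarred reads were single insertions. It is kept under its label below, and several values of fish P1 that move with it are also given without it. Values of fish P1 that are given only once include it. The number of insertions kept in fish P1 was 91 with it and 84 without, of which 66 and 64 were longer than 1 bp. Of these insertions, 38.5% reached 10 reads in a single library with it and 36.9% without. Such an insertion can have fewer reads in other libraries. The 3 bp insertion at position 535, picked as an example, reached 10 reads in 1 library of fish P1 and had reads in 16.

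Insertions were mostly longer than 1 bp when counted once each. Among the 136 insertions, 31 were 1 bp long, 18 were 2 bp and 19 were 3 bp, and longer ones were fewer, with 16 of 4 bp, 15 of 5 bp, 11 each of 6 and 7 bp, 10 of 8 bp, 4 of 9 bp and 1 of 10 bp. The median length was 3.5 bp. They lay between positions 527 and 565 with a median of 544, well inside the limits of 520 and 570. The 5 neighbouring positions with most insertions were 543 to 547, which held 44 of them, and position 546 alone held 10 different lengths. These 5 positions also held most of the insertion reads in 5 fish, with 77.1%, 94.8% and 90.7% in R1, R2 and R3 and 58.1%, 48.0% and 71.2% in P1, P2 and P3. The exception was fish P2, where position 533 alone held 50.5% of the insertion reads. The 31 insertions of 1 bp lay at 31 different positions, an unbroken run from 527 to 556 and position 565, while position 559 held a 7 bp insertion only. Within positions 520 to 570, longer insertions lay between 532 and 559. The first positions rested on few reads, near the limit of 10. The 1 bp insertions at 527 and 529 had at most 17 and 16 reads in a library. The 3 bp insertion at 532 had at most 14. Whether the spans differ beyond this limit was not tested.

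The share of scarred reads that single insertions held differed widely between fish. Averaged over libraries, it was 4.03% ± 1.81 (SD over 31 libraries) in fish R1, 20.2% ± 8.00 (13 libraries) in fish R2 and 13.5% ± 12.4 (14 libraries) in fish R3. The Cas9 protein fish had 7.41% ± 12.7 (P1, 26 libraries), 49.7% ± 13.95 (P2, 23 libraries) and 2.60% ± 3.47 (P3, 23 libraries). Fish P2 was thus highest and fish P3 lowest, and both had received Cas9 protein. The medians over libraries were 3.56%, 19.6% and 12.5% in R1, R2 and R3 and 4.70%, 51.3% and 1.28% in P1, P2 and P3. The ranges of fish R1 (1.73% to 7.85%) and fish R2 (9.09% to 32.8%) did not overlap, nor did those of fish R1 and fish P2, whose lowest library had 13.8% and whose highest had 83.3%. Fish R3 ranged from 2.41% to 53.8%, fish P1 from 0.894% to 65.9% and fish P3 from 0.149% to 16.1%. In fish R3, P1 and P3 the highest library lay far above the next, which had 19.2%, 17.8% and 5.87%. Without that library the mean was 10.4% ± 4.61 in fish R3, 5.07% ± 4.45 in fish P1, where it was barcode 24, and 1.99% ± 1.87 in fish P3 (SD over 13, 25 and 22 libraries). With Cas9 RNA the mean over fish was 12.6% ± 8.10 (SD, n = 3), against 19.9% ± 25.9 (SD, n = 3) with Cas9 protein, and the fish of each form spread more widely than the means differed (two-sided exact permutation test, p = 0.90, adjusted p = 1.0 over 7 comparisons). The difference was -7.35 percentage points, and 7.55 points when fish P2 was left out.

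Most reads of fish R2 were unscarred GFP, on average 86.3% of a library, against 25.1% to 45.1% in the other fish. Of all its reads, scarred or not, single insertions therefore held 2.71%, close to the 2.77% of fish R1, and compared with 7.56% for R3, 5.26% for P1, 37.8% for P2 and 1.81% for P3. The paper excluded fish above a limit of mean unscarred GFP over organs and lists R2 among those it kept. In the deposited counts fish R2 lies above that limit, and the reason for the difference was not tested. Within a fish, the rank correlation over libraries between the insertion share and unscarred GFP was -0.16 for R1 (31 libraries), 0.22 for R2 (13), 0.17 for R3 (14), -0.40 for P1 (26), -0.54 for P2 (23) and 0.30 for P3 (23). The libraries of a fish share cells of common origin and may share a body structure, so these values are a description.

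In each fish 1 or a few insertions held most of the insertion reads, and the leading insertion was not the same in all fish. In fish R1 it was the 2 bp insertion at position 546, which was carried with at least 10 reads by all 31 libraries and held between 0.366% and 3.13% of their scarred reads, with a median of 1.03%. It had the most reads of any insertion in 17 of the 31 libraries. The 1 bp insertion at position 546 came next, with a lowest share of 0.0181%, a median of 0.292% and a highest of 5.67% in barcode 16. The third was the 4 bp insertion at position 539, again in all 31 libraries, between 0.0864% and 1.62%, and with no read in Cas9 protein fish. In fish R1 10 different insertions led in at least 1 library. This was the most of any fish, but fish R1 also had the most libraries.

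Fish R2 was dominated by a 3 bp insertion at position 543. It was found in all 13 libraries, between 3.16% and 32.1% of the scarred reads with a median of 16.1%, and led in 12 of them. Averaged over libraries, it made up 73.5% of the insertion reads. In the other fish the same insertion had a mean of 0.0407% in fish R3, or 0.00444% without barcode 15, and at most 0.00108% in fish R1, P1, P2 and P3. The second insertion of fish R2, 1 bp at position 546, lay between 0.0215% and 3.78%, with a median of 0.845%. The third, 6 bp at position 546, rested on a single library. It held 5.94% of the scarred reads of barcode 14 and at most 0.125% of those of the other 12, so that its mean was 0.477% with barcode 14 and 0.0224% without.

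In fish R3 the insertion with the highest mean also rested on few libraries. The 5 bp insertion at position 544 held 50.5% of the scarred reads in barcode 14 (95% Wilson interval 50.4% to 50.7%) and 12.03% in barcode 2, while its median was 0.262% and its lowest value 0.178%. Its mean over the 14 libraries was 4.72%, and 1.19% without barcode 14. The 2 other leading insertions were spread more evenly. The 2 bp insertion at position 546 lay between 0.790% and 6.43%, with a median of 3.03%, and the 7 bp insertion at position 544 between 0.376% and 6.04%, with a median of 3.01%. Both were carried by all 14 libraries, and they led in 7 and 5 of them.

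In fish P1 the 1 bp insertion at position 546 led in 20 of 26 libraries. Its lowest share was 0.404%, its median 1.36% and its highest 26.5%, in barcode 24. Without that library the highest share was 15.9% and the mean 2.68%, compared with 3.60% with it. The second insertion, 1 bp at position 533, is the one that rested most on barcode 24, where it held 38.8% of the scarred reads. In 24 of the other 25 libraries it lay between 0.273% and 0.495%, and barcode 16 had 4.13%, from 76 reads. Its mean was 2.0% with barcode 24 and 0.529% without. The third, 5 bp at position 542, lay between 0.0241% and 1.25%, with a median of 0.0385%, and barcode 24 was its lowest library.

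Fish P2 carried 2 abundant insertions of 1 bp in all of its 23 libraries. The first, at position 533, held between 4.09% and 46.9% of the scarred reads, with a median of 24.2%, and led in 19 libraries. The second, at position 546, lay between 0.807% and 34.4%, with a median of 11.4%. The third was an 8 bp insertion at position 545, which was at 24.6% in barcode 24 and 22.6% in barcode 23 but had a median of only 0.731%. Averaged over libraries, the insertion at position 533 made up 50.5% of the insertion reads and that at position 546 a further 24.6%.

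Fish P3 had few insertion reads and no insertion that led throughout. The 1 bp insertion at position 546 had a lowest share of 0.0374%, a median of 0.106% and a highest of 4.61%. The 2 bp insertion at the same position had a median of 0.0488% and a highest share of 10.9%, in barcode 22, without which its mean fell to 0.272%, against 0.734% with it. The 3 bp insertion at position 544 was at 3.04% in barcode 13, with a median of 0.0363%, and its mean was 0.238% with barcode 13 and 0.110% without. Across the 23 libraries 7 different insertions led, 3 of them in 5 libraries each.

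On average over libraries, insertions of 1 bp took a larger part of the insertion reads in every Cas9 protein fish than in any Cas9 RNA fish. They made up 22.3% (R1), 9.41% (R2) and 7.59% (R3) of the insertion reads, and 69.05% (P1), 83.4% (P2) and 34.9% (P3). The mean over fish was 13.1% ± 7.99 with Cas9 RNA and 62.4% ± 24.9 with Cas9 protein (SD, n = 3 each). The difference of -49.4 percentage points had the smallest p that 3 fish against 3 allow (two-sided exact permutation test, p = 0.10, adjusted p = 0.70). Single libraries overlapped between the injections, with ranges of 0.839% to 83.6% (R1), 0.150% to 28.4% (R2) and 0.489% to 43.5% (R3), and of 27.3% to 99.9% (P1), 50.4% to 99.2% (P2) and 4.38% to 90.8% (P3). Without barcode 24, fish P1 was at 67.8%. Of the different insertions, 15 of 71, 9 of 52 and 12 of 57 were 1 bp long in R1, R2 and R3, and the Cas9 protein fish P1, P2 and P3 had 25 of 91, 24 of 63 and 12 of 47.

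Among insertions longer than 1 bp, the mean percent of a library's insertion reads was highest for 3 bp in fish R2 and P3 and for 2 bp in the other 4 fish. With the reads of a fish pooled, which gives deep libraries more weight, the highest was 2 bp in R1 and P3, 3 bp in R2, 5 bp in R3 and P1 and 8 bp in P2. As means over libraries, insertions of 2 bp held 42.01% of the insertion reads in fish R1, 36.9% in fish R3, 10.7% in fish P1 and 8.45% in fish P2, and 7 bp insertions a further 29.4% in fish R3. Insertions of 3 bp held 74.8% in fish R2 and 45.1% in fish P3, but 0.223% in fish P2. Insertions of 8 bp were at 7.74% in fish P2 and 7.03% in fish R1 and at most 3.16% elsewhere. Of the 136 insertions, 34 had a length that is a multiple of 3 bp, which keeps the reading frame. Their part of the insertion reads was 13.01%, 81.7% and 6.11% in R1, R2 and R3, and 6.78%, 0.242% and 45.7% in P1, P2 and P3. The high values of fish R2 and P3 came with the 3 bp insertions, and the low value of fish P2 with its 1 bp insertions.

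Most insertions were kept in more than 1 fish. Of the 136, 37 reached 10 reads in a single fish, 32 in 2 fish, 23 in 3, 22 in 4, 9 in 5 and 13 in all 6. Insertions kept in all fish were also the ones with more reads, with a median of 9194 reads in their deepest library, against 69 for those kept in 1 fish, so that sharing and abundance cannot be separated at a fixed limit of 10 reads. Among the 13, 5 were 1 bp long, and among the 37, 6 were, compared with 31 of all 136. The 13 held 67.2%, 11.8% and 56.7% of the insertion reads of R1, R2 and R3 and 57.7%, 32.3% and 62.6% of those of P1, P2 and P3. By type of injection, Cas9 RNA fish kept 96 insertions and Cas9 protein fish 118, of which 78 were common to both. These were 81.25% of the insertions of Cas9 RNA fish and 66.1% of those of Cas9 protein fish. Such counts and percents were not taken over all 4273 scars, so whether they are particular to insertions was not tested. Library numbers also differed, with 58 for Cas9 RNA and 72 for Cas9 protein.

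Sharing depended on the limit. When an insertion also had to hold 0.1% of the scarred reads of a library, 71 insertions were left, 36 of them in a single fish and 1 in all 6 fish. That one was the 1 bp insertion at position 546, and 2 others, 1 bp at position 545 and 2 bp at position 546, were left in 5 fish. The limit left 27, 25 and 28 insertions in R1, R2 and R3, and the Cas9 protein fish P1, P2 and P3 had 30, 19 and 14.

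The 1 bp insertion at position 546 was the insertion with the highest mean among those kept in all 6 fish. Its mean share of scarred reads was 0.747%, 1.18% and 0.303% in R1, R2 and R3, and 3.60%, 12.2% and 0.872% in P1, P2 and P3. It had reads in all 130 libraries and at least 10 of them in 129, the exception being 1 library of fish R3. Both its lowest library, at 0.0125%, and its lowest median, at 0.0941%, were in fish R3, whose highest library reached 2.32% and whose mean without it was 0.148%. The neighbouring 1 bp insertion at position 545 was far less even, with a mean of 3.71% in fish P2 and between 0.00441% (fish R3) and 0.189% (fish R2) in the other fish. The 0.189% of fish R2 was 0.124% without barcode 2. At position 547 the median of the 1 bp insertion over the libraries of a fish was between 0.00146% (fish P3) and 0.0311% (fish P2). Its mean of 0.115% in fish R3 rested on barcode 12, without which it was 0.0275%. At position 542 the median was between 0.00167% (fish P3) and 0.0392% (fish R3), and the mean of fish R1 was 0.147%, or 0.0215% without barcode 19.

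The longer insertions kept in all fish were abundant in some and near the limit in others. The 2 bp insertion at position 546 averaged 1.23%, 0.105% and 3.25% in R1, R2 and R3 and 0.0213%, 0.00138% and 0.734% in P1, P2 and P3, and was carried by 1 of 23 libraries in fish P2. The 5 bp insertion at position 544, abundant in fish R3, was carried by 21 libraries of fish R1 and by 1 of fish P2, with 14 reads. The 3 bp insertion at position 544 lay between 0.000752% (fish P2) and 0.289% (fish R1), and the 2 bp insertion at position 540 between 0.00126% (fish P3) and 0.332% (fish P1). These means often rested on 1 library. The 5 bp insertion at position 545 averaged 0.155% in fish R2, from 1.98% in barcode 10, and 0.00245% without that library. The 3 bp insertion there averaged 0.0858% in fish P2, from 1.83% in barcode 18, and 0.00657% without it. The 2 bp insertion at position 546 averaged 0.0376% in fish R2 without barcode 14, 0.0103% in fish P1 without barcode 3, 0.000534% in fish P2 without barcode 15 and 0.272% in fish P3 without barcode 22. At position 544, the 3 bp insertion averaged 0.000171% in fish P2 without barcode 18. At position 540, the 2 bp insertion averaged 0.205% in fish P1 without barcode 14 and 5.4e-05% in fish P3 without barcode 3.

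The 1 bp insertion at position 533 was abundant in fish P2 and in barcode 24 of fish P1. In Cas9 RNA fish its mean was 0.0446% in fish R1, where 20 of 31 libraries carried it and barcode 15 reached 0.873%, without which the mean was 0.0170%, while fish R2 and R3 had 3 and 1 reads of it in all. Among Cas9 protein fish its mean was 2.0% (P1, 0.529% without barcode 24), 25.3% (P2) and 0.00885% (P3, 0.00456% without barcode 2). There were 5 insertions of 1 bp that only fish P1 and P2 kept, at positions 531, 532, 553, 554 and 555, chosen after their values were seen, and each was rare beside the insertion at position 533. The one at position 553 had 0.690% to 0.960% as many reads in the 23 libraries of fish P2 and 0.766% as many in barcode 24 of fish P1. At position 531 this ratio was 0.160% to 0.308% in 22 libraries of fish P2 and 0.215% in barcode 24 of fish P1. Over all libraries of fish P1 with at least 10 reads of the rarer insertion, the ratio ranged more widely. It lay between 0.567% and 1.61% at position 553 (17 libraries) and between 0.211% and 2.85% at position 531 (11 libraries). In both fish the insertions at positions 532, 554 and 555 were rarer still, and in fish P1 each of these 3 reached 10 reads only in barcode 24, without which fish P2 alone kept them.

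Some pairs of insertions varied together over the libraries of a fish. All 60 pairs among the 5 leading insertions of each fish were compared, with a median rank correlation of 0.037, and 3 pairs were above 0.90. In fish P2 the 8 bp and the 1 bp insertion at position 545 had a rank correlation of 0.95 over 23 libraries, and the 1 bp insertion had a median of 0.975 times the reads of the 8 bp insertion. Both exceeded 1% in 7 libraries, in which they ranged from 1.42% to 24.6% and from 1.22% to 24.2% and their ratio stayed between 0.856 and 1.11. Asking for 1% of both leaves out libraries in which the pair differed more. Among the other 16 libraries, barcode 21 had 1.65% of the 8 bp and 0.740% of the 1 bp insertion. Others were close, with 0.302% and 0.321% in barcode 1. In fish R1 the 8 bp insertion at position 545 and the 3 bp insertion at position 544 had a rank correlation of 0.95 over 31 libraries, where the 3 bp insertion had a median of 0.884 times the share of the 8 bp insertion in the 24 libraries with both. In fish R3 the pair was the 2 bp insertion at position 546 and the 7 bp insertion at position 544, with 0.93 over 14 libraries, and the 7 bp insertion had a median of 0.935 times the share of the 2 bp insertion. The strongest opposite relation, -0.87, was in fish R2, between the 3 bp insertion at position 543 and the 6 bp insertion at position 545. The shares of a library have a common denominator, and the pairs were picked for their correlation, so that these values describe the libraries and were not tested.

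At the limit of 10 reads, few insertions were carried by every library of a fish. Such a count cannot exceed what the library with the fewest insertions carried, so it depends on shallow libraries. That was 2 in fish P1 (barcode 16, 1842 scarred reads) and in fish R2 (barcode 13, 2013 scarred reads). In fish P2 it was 6 (barcode 11, 17241 scarred reads). Insertions carried by all libraries numbered 3 of 71, 2 of 52 and 3 of 57 in R1, R2 and R3. The Cas9 protein fish P1, P2 and P3 had 2 of 91, 6 of 63 and 3 of 47. In contrast, 14, 20 and 16 insertions of R1, R2 and R3 and 35, 17 and 22 of P1, P2 and P3 reached 10 reads in a single library, whether or not other libraries had fewer reads of them. As a percent of the insertions of a fish, this was 28.8% ± 9.39 with Cas9 RNA and 37.4% ± 9.95 with Cas9 protein (SD, n = 3 each, two-sided exact permutation test, p = 0.50, adjusted p = 1.0). With a limit of 100 reads this order reversed, to 48.1% in Cas9 RNA fish against 28.9% in Cas9 protein fish. It also reversed with 0.1% of scarred reads as a further limit, to 46.2% against 33.5%. Both reversed differences had the smallest p that 3 fish against 3 allow (same exact test, p = 0.10, adjusted p = 0.35), so the direction depended on the limit. The median library carried 16, 7 and 16 insertions in R1, R2 and R3, and the Cas9 protein fish P1, P2 and P3 had 22, 18 and 9. A library with more scarred reads carried more insertions, with rank correlations over libraries of 0.89, 0.77 and 0.84 in R1, R2 and R3 and 0.72, 0.90 and 0.50 in P1, P2 and P3.

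The number of insertions did not separate the injections. With Cas9 RNA a fish kept 60 ± 9.85 insertions, against 67 ± 22.3 with Cas9 protein (SD, n = 3 each, two-sided exact permutation test, p = 0.70, adjusted p = 1.0). Of these, 48 ± 7 and 46.7 ± 16.9 were longer than 1 bp (p = 1.0, same exact test). The leading insertion of a fish, that with the highest mean share, held 40.8% ± 30.02 of its insertion reads with Cas9 RNA and 40.04% ± 13.1 with Cas9 protein (two-sided exact permutation test, p = 1.0). This depended on the choice of leader and on weighting. In fish R3 the leader, 5 bp at position 544, held 14.5% of the insertion reads and led in 2 of 14 libraries. With the reads of a fish pooled, the values were 57.3% with Cas9 RNA and 41.5% with Cas9 protein (same exact test, p = 0.40).

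Of the 37 insertions kept in only 1 fish, 31 were longer than 1 bp, near the share over all insertions, 105 of 136. Those 37 were 5, 2 and 3 in R1, R2 and R3, and the Cas9 protein fish P1, P2 and P3 had 18, 8 and 1. They made up 5.38% ± 1.60 of the insertions of a fish with Cas9 RNA and 11.5% ± 8.88 with Cas9 protein (two-sided exact permutation test, p = 0.40, adjusted p = 1.0, n = 3 each). The value of a fish depends on what the other fish kept, so the values are not independent and this p is a description. Such percents were not taken over all 4273 scars, so whether they are particular to insertions was not tested. The 37 insertions had a median of 69 reads in their deepest library, and depth was not made equal between fish. Without barcode 24 of fish P1, insertions kept in only 1 fish were 19.05% of the insertions of fish P1 and 17.5% of those of fish P2, compared with 19.8% and 12.7% with it. The most widely carried of fish R1 was a 6 bp insertion at position 550, in 12 of 31 libraries, at 1.58% in barcode 24 with a median of 0.00243%. In fish R2 it was a 7 bp insertion at position 539 and in fish R3 a 9 bp insertion at position 544, each in 2 libraries and with highest shares of 0.644% and 0.633%. Fish P1 carried a 5 bp insertion at position 548 in 20 of 26 libraries, at 1.18% in barcode 4 with a median of 0.00383%. Fish P2 carried an 8 bp insertion at position 549 in 11 of 23 libraries, at most at 0.146%. The single insertion of fish P3, 3 bp at position 550, was in all 23 libraries. It lay between 0.00731% and 0.330%, with a median of 0.0781%, and led in 5 libraries. The longest of all insertions, 10 bp at position 546, reached 103 reads in 1 library of fish P1 and 0.000753% on average.

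To see where insertions differ from other small scars, they were set beside single deletions of 1 to 2 bp and of 3 to 6 bp at the same positions and with the same limit, of which there were 63 and 68. Insertions held 16.2% ± 17.6 of the scarred reads (SD, n = 6 fish), against 5.46% ± 2.73 for deletions of 1 to 2 bp and 25.6% ± 6.97 for deletions of 3 to 6 bp. They exceeded the shorter deletions in 4 of 6 fish and the longer ones in 2 of 6, and neither difference was larger than the spread between fish (exact paired permutation test, two-sided, p = 0.219 and 0.375, adjusted p = 0.375 and 0.406 over 6 comparisons). Without barcode 24, fish P1 had 5.07% insertions against 6.04% deletions of 1 to 2 bp, so that insertions exceeded the shorter deletions in 3 of 6 fish. The shorter deletions held more than insertions in fish R1 and P3 with all libraries. Fish P2 was lowest of the 6 for both kinds of deletion, with 2.12% and 18.02%.

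At the limit of 10 reads, insertions were more often found in a single library than deletions of 3 to 6 bp. This held in 6 of 6 fish, with means of 33.1% ± 9.87 and 22% ± 6.64 (SD, n = 6 fish), and had the smallest p that 6 pairs allow, which did not pass adjustment (exact paired permutation test, two-sided, p = 0.0312, adjusted p = 0.188). The 136 insertions held 16.2% of the scarred reads on average and the 68 deletions of 3 to 6 bp 25.6%, though insertions held more in 2 of 6 fish. Abundance and spread over libraries were therefore not separated. Against deletions of 1 to 2 bp, at 27.2% ± 10.2, insertions were higher in 3 of 6 fish (p = 0.406, same exact test). With a limit of 100 reads, the percents were 38.5% for insertions and 31.7% for deletions of 3 to 6 bp (same exact test, p = 0.344). Of the insertions of a fish, 8.46% ± 6.63 were kept in no other fish, compared with 2.80% ± 4.36 of the deletions of 1 to 2 bp and 4.23% ± 2.96 of those of 3 to 6 bp (exact paired permutation test, two-sided, p = 0.0938 and 0.25, adjusted p = 0.281 and 0.375, higher in 5 and 4 of 6 fish). The values for scars kept in no other fish are not independent, since each depends on what the other fish kept. These differences also depended on the limit. With 0.1% of scarred reads as a further limit the percents were 24.4% for insertions, 23.7% for deletions of 1 to 2 bp and 8.25% for those of 3 to 6 bp (exact paired permutation test, two-sided, p = 0.906 and 0.0312, adjusted p = 0.906 and 0.188).

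Few insertions lay right at the limits of the choice. No insertion had a highest count of exactly 10 reads, 2 had 11 and 2 had 12, whereas 2 had 9 and 3 had 8. The last insertion inside the positions was at 565, and the nearest outside them with 10 reads were at 514 and 572.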

How the data were processed

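ScarTrace libraries of 6 zebrafish were used. The authors amplified GFP from genomic DNA, aligned reads to GFP by BWA 0.7.16a, per the submitters' processing notes, and deposited counts, the reads of each scar in each barcode, without normalization, noise filter or summing of technical replicas. Positions refer to their GFP reference, and no genome build applies. From these counts, barcodes with at least 1000 reads were taken as libraries, and single insertions at positions 520 to 570 with at least 10 reads in a library were selected. Members and lists were chosen with earlier results of these data known. Shares are percents of the scarred reads of a library, averaged over the libraries of a fish. Cas9 RNA fish were compared with Cas9 protein fish by exact permutation tests with the fish as unit, and insertions with deletions by exact sign-flip tests within fish, with Benjamini-Hochberg adjustment over 7 and 6 comparisons.

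Named insertions are the 3 with the highest mean share in each fish, the 10 with the highest mean among those kept in all 6 fish, the one carried by most libraries of each fish among those kept in no other fish, and the longest, and others are named as chosen after their values were seen. Intervals are 95% Wilson intervals. Libraries held between 2802 and 3198706 reads. The alternatives were other limits on libraries, reads and positions, pooled reads, percents of all reads, each fish left out and a replicate block. Leaving out barcode 24 of fish P1 or the highest library of a named insertion, medians over libraries, and pooled reads by length were chosen after seeing the data. The steps were checked on simulated libraries with planted insertions. These were few, abundant and the same in every library, so the check did not cover rare insertions or those in a single library. Python 3.11.15, NumPy 2.4.6, pandas 2.3.3 and SciPy 1.17.1 were used.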

Additional observations from a re-analysis of the deposited data

Results flagged for a closer look

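Single insertions with at least 10 reads also lay outside positions 520 to 570, in data that the comparisons did not use. They were 1 bp insertions at positions 514 (435 reads, fish P1 only), 572 (413 reads in fish R2 and R3), 580 (815 reads), 581 (1510 reads) and 582 (3659 reads), the last 3 in all 6 fish, and a 6 bp insertion at position 573 (483 reads, fish R2 only, 477 of them in 1 library). The reads at position 582 followed unscarred GFP. Per 100 unscarred reads there were between 0.0136 and 0.0150 of them in the 6 fish, a range of 1.11 times, against 18.5 times per scarred read. The same ratio to unscarred reads varied 1.31 times at position 581 and 1.56 times at position 580. For the 13 insertions at positions 520 to 570 that all fish kept, it varied at least 16.1 times. The insertions that not all fish kept, which had fewer reads, were not compared in this way. The source of the reads at positions 580 to 582 was not tested.

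Barcodes with fewer than 1000 reads, which were not used as libraries, held insertion reads as well. These barcodes numbered 33, 38 and 23 in R1, R2 and R3 and 52, 56 and 40 in P1, P2 and P3. In all they held 171, 655 and 1457 reads in R1, R2 and R3 and 2414, 890 and 627 in P1, P2 and P3. Whether they are small libraries or unused barcodes was not tested. Insertion reads numbered 8, 9 and 73 in R1, R2 and R3, and the Cas9 protein fish P1, P2 and P3 had 32, 143 and 15. As percents of the scarred reads in these barcodes they were 9.64% (95% Wilson interval 4.97% to 17.9%), 8.26% (4.40% to 14.95%) and 9.35% (7.50% to 11.6%) in R1, R2 and R3, and 5.08% (3.62% to 7.08%), 32.1% (27.96% to 36.6%) and 4.02% (2.45% to 6.53%) in P1, P2 and P3.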

How the results depend on the processing

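Of the 7 comparisons between injections, 3 kept their direction at the limit of 10 reads whichever fish was left out. They were the 1 bp percent of insertion reads, the percent of insertions in a single library and the percent kept in no other fish. Over the fish left out, the Cas9 RNA minus Cas9 protein difference ranged from -63.1 to -38.9 points for the 1 bp percent, -13.9 to -3.97 for single libraries and -11.7 to -2.04 for no other fish. It ranged from -16.0 to 7.55 points for the share of scarred reads (positive without P2), -15.6 to 13.9 for the leading insertion (negative without R2, and without P3), -17 to 5 for the number of insertions (positive without P1) and -4.5 to 11 for longer insertions (negative without R1, P2 or P3). With a limit of 100 reads the number of insertions differed by 0 (30.3 with each form of Cas9), and with 0.1% of scarred reads by 5.67 (26.7 for Cas9 RNA against 21 for Cas9 protein). The percent in a single library then differed by 19.2 and 12.7, both opposite to the value at 10 reads. The 6 differences between insertions and deletions kept their direction whichever fish was left out. Under the other limits, the difference in the percent kept in no other fish ranged from 0.646 to 6.65 points against deletions of 1 to 2 bp and from 3.73 to 16.1 against those of 3 to 6 bp. The other settings turned no direction, and gave -57.6 to -43.2 points for the 1 bp percent. With the fish number as a replicate block, the differences were the same. For the 1 bp percent, at -49.4 points and lower in Cas9 RNA in each pair, the exact paired permutation p was 0.25. This is the smallest p that 3 pairs allow. Every Cas9 protein fish lay above every Cas9 RNA fish, so any pairing would give the same p and the block adds no further check. Over the 136 insertions, fish with the same number correlated at -0.129, 0.00429 and 0.0994. Fish with different numbers were not compared, so these values cannot show whether such fish share more than a number. Depth limits the rarest insertions, since deeper libraries carried more of them.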
